A study of Mus musculus with 8 samples.

Results

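Thyroid hormone signalling was followed through 7 genes in the brains of newborn mice: *Dio2*, *Thra*, *Thrb*, *Hr*, *Klf9*, *Crym* and *Ncor1*. They were chosen by name for their place in the pathway, with earlier results of these data known. All 7 were found among the 49585 genes of the deposited count table and among the 23113 genes tested. The table holds the RNA-seq reads counted per gene in whole brains of 8 F1 females, whose mothers were C57BL/6J and whose fathers were CAST/EiJ (B × C). All pups were at postnatal day 1 and each came from a different litter. The mothers of 4 pups drank water with 0 ppm cadmium (Cd) and the mothers of the other 4 drank water with 50 ppm Cd. It was supplied as CdCl2, before mating and through pregnancy, and the labels write the doses as ppm CdCl2. Cd was given to the mothers only, and the labels name no other allele or agent that set the groups apart. RNA was taken from a portion of each pulverized brain. Libraries are numbered within their dose by the order of their records, which says nothing of the pups. The comparison asked whether maternal Cd exposure went with a different level of these transcripts in the newborn brain.

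Thyroid hormone reaches the brain mostly as the prohormone T4, which is carried across membranes by transporters and converted to the active hormone T3 by a deiodinase. T3 binds nuclear receptors that sit on target genes, often as partners of retinoid X receptors. Without hormone these receptors hold corepressors on the gene, and with hormone they exchange them for coactivators. Around birth the hormone is known to guide neuronal migration, cortical and cerebellar maturation and the start of myelination.

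In the GRCm38 annotation *Dio2* lies at chr12:90724552-90738438 on the minus strand, *Thra* at chr11:98740638-98769006 on the plus strand and *Thrb* at chr14:17660261-18038090 on the plus strand. *Hr* (chr14:70552212-70573548) and *Klf9* (chr19:23141226-23168134) are on plus strands. *Crym* (chr7:120186380-120202111) and *Ncor1* (chr11:62316426-62458541) are on minus strands. Exons of *Thra* share 5.7% of their length with *Nr1d1* on the opposite strand, *Dio2* exons share 1.72% with *Gm26512*, and *Ncor1* exons share 0.65% with opposite-strand genes. The exons of the other 4 genes overlapped no other gene. The libraries were strand-specific, but the strand setting of the count was not given in the sources used here. *Nr1d1*, a clock gene, stood at 10.3 ± 3.04 CPM (read counts scaled to the size of the library) at 0 ppm and 11.1 ± 2.72 CPM at 50 ppm (SD, n = 4 each), a small level beside that of *Thra*.

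RefSeq promoter windows of GRCm38.p6, which run from 250 bases before to 50 after a transcript's start, were at hand for 4 of the 7 genes (*Dio2*, *Thrb*, *Klf9* and *Ncor1*), with 6 windows in all. They were searched on both strands for AGGTCA, the hexamer that thyroid hormone receptors and several other nuclear receptors recognise, for a direct repeat of it with 4 bases between, and for the cAMP response element TGACGTCA. The stretches shown are those in which one of these motifs was found, with the motif in capitals and each sequence printed 5′ to 3′ on its gene's strand. The first is the *Dio2* window before the start (chr12:90739039-90739288, minus strand), and the second is 30 bases of the *Thrb* window (chr14:17660764-17660793, plus strand).
Dio2: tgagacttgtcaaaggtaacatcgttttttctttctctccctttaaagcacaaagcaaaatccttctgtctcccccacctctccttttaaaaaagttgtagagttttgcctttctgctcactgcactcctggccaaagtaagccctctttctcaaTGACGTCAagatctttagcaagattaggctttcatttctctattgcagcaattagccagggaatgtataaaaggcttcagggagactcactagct
Thrb: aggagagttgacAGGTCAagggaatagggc
The cAMP response element of *Dio2* began 95 bases before the RefSeq transcript's start, and the hexamer of *Thrb* began 184 bases before its own. These starts differ from the ends of the gene spans given above. The *Dio2* window lies wholly outside the span of *Dio2*, and the *Thrb* stretch lies inside the span of *Thrb*. Of all 32851 windows, 1.79% held the cAMP response element and 16.3% held the hexamer, so 1 of 6 windows with the hexamer is near its general share. The direct repeat was in none of the 6 windows and in 5 of the 32851.

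The libraries held between 22916434 and 30708087 counted reads. In the neuron list 7 of 8 markers were measured at 3428 to 3805 CPM in sum at 0 ppm and 3615 to 3865 CPM at 50 ppm, and *Tubb3* was listed at 0 in all 8 libraries. Astrocyte markers summed to 787–990 CPM at 0 ppm and 997–1218 CPM at 50 ppm, and oligodendrocyte markers to 311–366 and 337–433 CPM. Summed markers of hindbrain and spinal cord were 13.2 and 14.1 CPM in the first and second 0 ppm libraries, against 45.3 to 119 CPM in the other 6, with *Hoxa3* listed at 0 in all 8. Why *Tubb3* and *Hoxa3* were listed at 0 was not resolved, and these values are not read as a lack of expression. The same 2 libraries had the highest summed forebrain markers (1120 and 1031 CPM, against 678 to 911 CPM). Skin markers summed to 6.60–9.08 CPM over all libraries, skeletal muscle to 7.28–9.44 CPM and anterior pituitary to 0.670–1.90 CPM, where *Gh* and *Prl* were too low to be tested. Blood markers spanned 101–404 CPM, endothelium 212–265 CPM and choroid plexus 350–1185 CPM. In whole brain, fewer cells of a type and less RNA per cell cannot be told apart.

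None of the 7 genes passed the adjusted p threshold of 0.05 between 50 ppm and 0 ppm (adjusted p = 0.999 for each, from the quasi-likelihood F test of edgeR with p-values corrected by Benjamini and Hochberg's procedure), where 0.0173% of all genes did. DESeq2 and limma-voom called none of the 7 either. At an unadjusted p under 0.05 there was 1 of 7, *Hr*, against 3.75% of all genes tested. *Hr* was lower at 50 ppm, as were 1.44% of all genes at that p, while 2.31% of all genes were higher at it and none of the 7 was. For none of the 7 did the 4 exposed libraries lie wholly above or below the 4 controls, as they did for 2.09% of all genes. The estimate was below 0 for 6 genes and above 0 for *Crym*, with a median log2 fold change of -0.07 beside -0.003 over all genes tested.

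**Figure D1:**
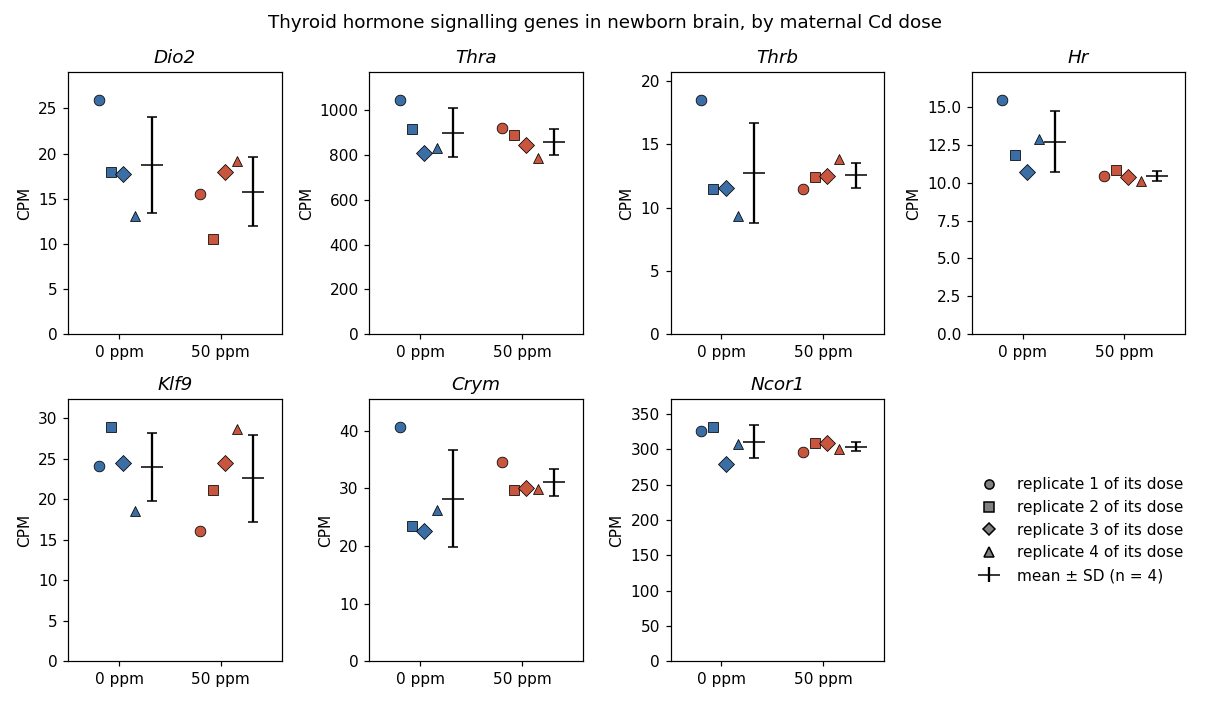
Level of each gene in CPM (vertical axes, from 0) by maternal dose (horizontal axes), with a symbol for each replicate and the mean ± SD of 4 libraries beside it. The first 0 ppm library is the highest point for *Dio2*, *Thra*, *Thrb*, *Hr* and *Crym*, and in every panel the doses overlap.

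The hormone receptors stood far apart in abundance. *Thra*, which encodes the thyroid hormone receptor alpha and, by splicing, a form that does not bind T3, averaged 191 CPM per kilobase of exon over the 8 libraries. *Thrb*, the receptor beta, averaged 1.71 CPM per kilobase. The ratio of *Thra* to *Thrb* on this per-kilobase scale lay between 90.8 and 142 in single libraries, so that *Thrb* made up 0.698% to 1.09% of the receptor transcripts on that scale. The ratio was lowest in the first 0 ppm library (90.8) and the fourth 50 ppm library (91.4), and the doses overlapped.

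*Thra* was measured at 1047, 919, 808 and 831 CPM in the 0 ppm libraries and at 920, 890, 845 and 787 CPM in the 50 ppm libraries. Apart from the first control, the doses covered the same range. Its log2 fold change was -0.07 (SE 0.08, 95% interval -0.24 to 0.10, which spans 0.849-fold to 1.07-fold), and p was 0.571 in an exact permutation test. That test is two-sided, draws on all 70 ways to label 4 of 8 libraries as exposed, and cannot return a p below 0.0286. *Thra* was counted with 17829 to 30664 reads per library.

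*Thrb* was at 18.5, 11.5, 11.6 and 9.37 CPM at 0 ppm and at 11.4, 12.4, 12.5 and 13.8 CPM at 50 ppm. The control libraries held both the highest and the lowest value, and all exposed libraries lay between them. A log2 fold change of -0.03 (SE 0.16, 95% interval -0.37 to 0.32) was estimated, and the exact permutation p was 1. The coefficient of variation was 31.3% at 0 ppm and 7.77% at 50 ppm. The first control library was 1.71 times the mean of the other 3, and without it the log2 fold change was 0.21 (unadjusted p = 0.118).

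*Dio2* encodes the type 2 deiodinase, which makes T3 from T4 and in brain is found mainly in astrocytes and tanycytes. It was at 25.9, 18.0, 17.7 and 13.1 CPM at 0 ppm and at 15.5, 10.5, 17.9 and 19.1 CPM at 50 ppm. The highest library was a control and the lowest an exposed one, and the other 6 interleaved. The log2 fold change was -0.25 (SE 0.18, 95% interval -0.64 to 0.14), with an exact permutation p of 0.457, and the interval spans 0.643-fold to 1.10-fold. Without the first control library, 1.59 times the mean of the other controls, the estimate was -0.05, and without the fourth control it was -0.39 (unadjusted p = 0.0452). Beside this, the 8 astrocyte markers were all estimated higher at 50 ppm, 5 of them at an unadjusted p under 0.05 (*Aqp4*, *Gfap*, *Gja1*, *S100b* and *Agt*), against 2.31% of all genes, and the part of this difference in the *Dio2* result was not tested.

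*Crym* encodes mu-crystallin, a cytosolic protein that binds T3. It was at 40.6, 23.4, 22.6 and 26.3 CPM at 0 ppm and at 34.5, 29.7, 30.0 and 30.0 CPM at 50 ppm. All 4 exposed libraries lay above 3 of the controls and below the fourth, which was the first control library. With all 8 libraries the log2 fold change was 0.14 (SE 0.14, 95% interval -0.16 to 0.44), with an exact permutation p of 0.486.

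This comparison rested on the first control library, which was 1.69 times the mean of the other controls in *Crym*. Without it the controls stood at 24.1 ± 1.93 CPM (SD, n = 3), the exposed libraries at 31.0 ± 2.30 CPM (SD, n = 4), and the log2 fold change was 0.37 with a standard error of 0.10. The unadjusted p was then 0.00166, against 3.76% of all genes with an unadjusted p under 0.05 in that fit, and *Crym* still missed the threshold (adjusted p = 0.640, the same edgeR test and correction). With this library left out, *Crym* alone of the 7 genes did not overlap between doses, and 4.48% of all genes did not either. The library was chosen for this after its values were seen. Its summed forebrain markers were the highest of all (1120 CPM) and its summed hindbrain markers the lowest (13.2 CPM), and their part in the *Crym* level was not tested.

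*Ncor1* encodes the nuclear receptor corepressor 1, which unliganded thyroid hormone receptors recruit. It was at 326, 331, 279 and 307 CPM at 0 ppm and at 296, 309, 309 and 300 CPM at 50 ppm. The exposed libraries lay close together inside the range of the controls. The log2 fold change was -0.04 (SE 0.07, 95% interval -0.18 to 0.11, or 0.885-fold to 1.08-fold), the most narrowly bounded of the 7, with an exact permutation p of 0.686.

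*Hr* and *Klf9* are among the best known direct targets of T3 in the developing brain. *Hr*, which encodes the corepressor hairless, was at 15.5, 11.8, 10.7 and 12.9 CPM at 0 ppm and at 10.5, 10.8, 10.3 and 10.1 CPM at 50 ppm. Of the controls, 3 lay above every exposed library and the remaining one fell just under the highest exposed library, so the doses overlapped by a single value. *Hr* averaged 12.7 ± 2.03 CPM at 0 ppm and 10.4 ± 0.311 CPM at 50 ppm (SD, n = 4 each).

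The log2 fold change of *Hr* was -0.28 (SE 0.12, 95% interval -0.54 to -0.02, or 0.686-fold to 0.984-fold). Its unadjusted p was 0.0340 in edgeR's quasi-likelihood test, its adjusted p 0.999 with the Benjamini-Hochberg method, and its exact permutation p 0.0571. *Hr* kept its sign with each library left out in turn, and without the first control library the estimate was -0.18 (unadjusted p = 0.173). It was counted with 229 to 453 reads per library. *Hr* is also expressed in skin, and the summed skin markers were 7.998 to 9.08 CPM at 0 ppm and 6.60 to 7.63 CPM at 50 ppm. The skin sums did not overlap between doses, and the astrocyte sums did not either. Of all single genes, 2.09% did not overlap. Most of the skin sum came from *Krt10* and *Dsp*. The basal keratins *Krt5* (0.0364 CPM at 0 ppm and 0.0461 CPM at 50 ppm) and *Krt14* (0.164 and 0.152 CPM) were near 0. None of the 6 skin markers had an unadjusted p under 0.05, and their part in the *Hr* result was not tested.

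*Klf9*, a Krüppel-like transcription factor, was at 24.1, 28.9, 24.4 and 18.6 CPM at 0 ppm and at 16.0, 21.1, 24.5 and 28.7 CPM at 50 ppm. High and low libraries were found at either dose, with a coefficient of variation of 17.6% at 0 ppm and 23.7% at 50 ppm. Its estimate was a log2 fold change of -0.09 (SE 0.15, 95% interval -0.41 to 0.23), and the exact permutation p was 0.714. The second control and the fourth exposed library were the highest, and the latter was the lowest of the 8 for *Hr*.

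Per kilobase of exon, the order of mean level over the 8 libraries was *Thra* (191 CPM per kilobase), *Ncor1* (24.0), *Crym* (8.74), *Klf9* (4.84), *Dio2* (2.96), *Thrb* (1.71) and *Hr* (1.67). *Thra*, *Ncor1* and *Crym* did not overlap with their neighbours in any library. The ranges of *Klf9* (3.33 to 6.00 CPM per kilobase) and *Dio2* (1.81 to 4.46) overlapped, as did those of *Dio2* and *Thrb* (1.27 to 2.50) and of *Thrb* and *Hr* (1.46 to 2.23).

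Across libraries, the first 0 ppm library was the highest of the 8 for 5 of the 7 genes and the second 0 ppm library for *Klf9* and *Ncor1*. The excess of the first library over the mean of the other controls was largest for *Thrb* (1.71 times), *Crym* (1.69 times) and *Dio2* (1.59 times), smaller for *Hr* (1.31 times) and *Thra* (1.23 times), and slight for *Ncor1* (1.07 times) and *Klf9* (1.00 times). Lowest values were spread over 5 libraries of both doses. With the first control library left out, 4 genes were estimated lower and 3 higher at 50 ppm, and *Crym* in place of *Hr* had an unadjusted p under 0.05.

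**Figure D2:**
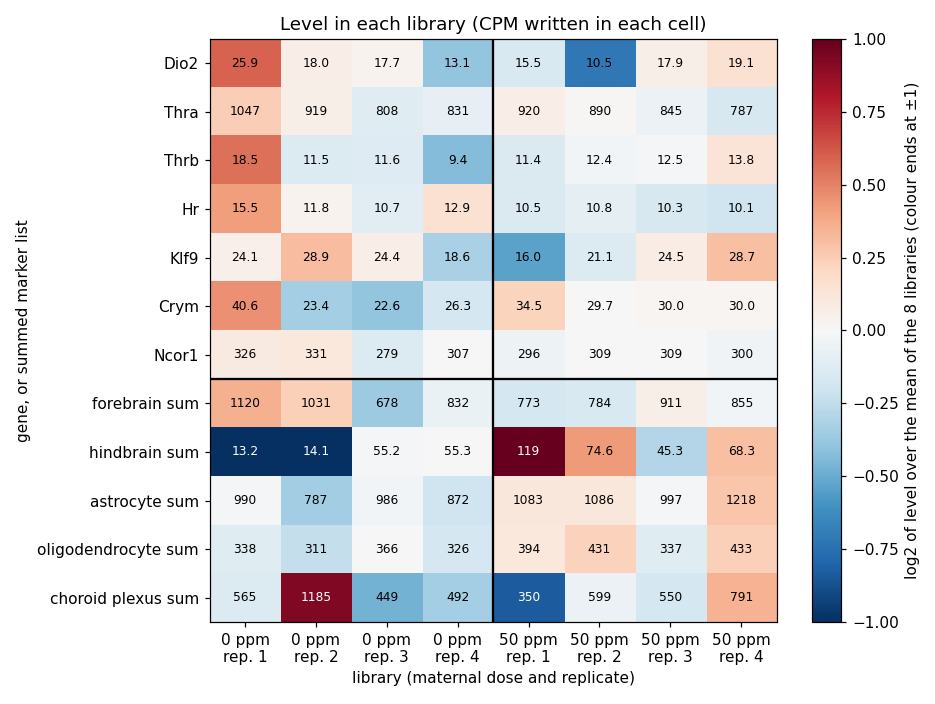
Level of the 7 genes and of 5 summed marker lists (rows) in each library (columns), with the CPM written in each cell and the colour giving the log2 ratio to the mean of the 8 libraries. The first 0 ppm library holds the highest value of 5 of the 7 genes and is, like the second, blue for the hindbrain sum (13.2 and 14.1 CPM) and red for the forebrain sum.

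**Figure D3:**
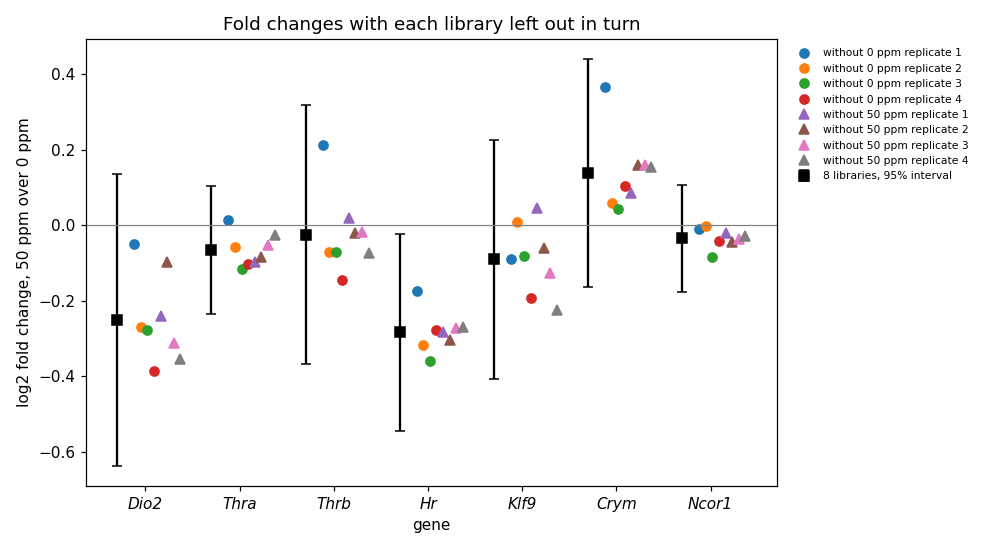
Log2 fold change of 50 ppm over 0 ppm (vertical axis) for each of the 7 genes (horizontal axis), from all 8 libraries with its 95% interval (square) and with each library left out in turn (circles for controls, triangles for exposed libraries). Leaving out the first 0 ppm library moves *Crym* to 0.37 and *Thrb* to 0.21, and *Hr* stays below 0 throughout.

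Of the 21 pairs of genes, 18 had a positive Pearson correlation of log2 CPM over the 8 libraries. All genes of a library share its depth and the makeup of its brain. The closest pair was *Thra* and *Hr*, with r = 0.71 (exact permutation p = 0.0488, Benjamini-Hochberg adjusted p over the pairs = 0.368) and Spearman's rho = 0.52 (exact permutation p = 0.197, adjusted p = 0.729). Without the 2 libraries farthest from the median of *Thra* its r was -0.10, so that the relation rests on those libraries. With the mean of each dose taken away r was 0.78. No pair passed adjustment for Pearson's r or Spearman's rho.

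*Hr* and *Crym* had r = 0.38 over the 8 libraries (exact permutation p = 0.351, adjusted p = 0.574) and r = 0.91 after the mean of each dose was taken away. Without the first control library r was -0.50 with both doses pooled, a scale on which the dose difference still counts. The value with the dose means taken away was not computed without that library. *Klf9* stood apart from *Thra* (r = -0.15), *Hr* (r = -0.02) and *Crym* (r = -0.30), the 3 pairs with a negative value.

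Among 12422 genes with a mean count of at least 100, the pattern over the 8 libraries most like that of *Dio2* was that of *Spred2* (r = 0.98) and then *Ncoa4* (r = 0.96), the latter an adaptor of ferritin turnover. For *Thra* these were *4933404O12Rik* (r = 0.98) and *Rnd1* (r = 0.97), for *Thrb* *Opcml* (r = 0.94) and *Gm16582* (r = 0.93), and for *Hr* *Dusp18* (r = 0.97) and *Mcf2* (r = 0.95). *Gpr34* (r = 0.97) and *Rxfp1* (r = 0.95) were closest to *Crym*, *Fig4* (r = 0.98) and *Adgra3* (r = 0.97) to *Ncor1*, and *Ovca2* (r = 0.96) was among the 2 closest to *Klf9*. None of these genes was closest to more than 1 of the 7. These likenesses are a description, with no test.

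With the wider pathway included there were 46 genes, of which 45 were tested. No gene of these passed the adjusted threshold in edgeR's quasi-likelihood test, and 5 had an unadjusted p under 0.05 (3.75% of all genes did), 4 higher and 1 (*Hr*) lower at 50 ppm. DESeq2 called 1 of them, *Mbp*. Of the 38 tested genes outside the 7, 18 were estimated higher and 20 lower, with a median log2 fold change of -0.02.

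**Figure D4:**
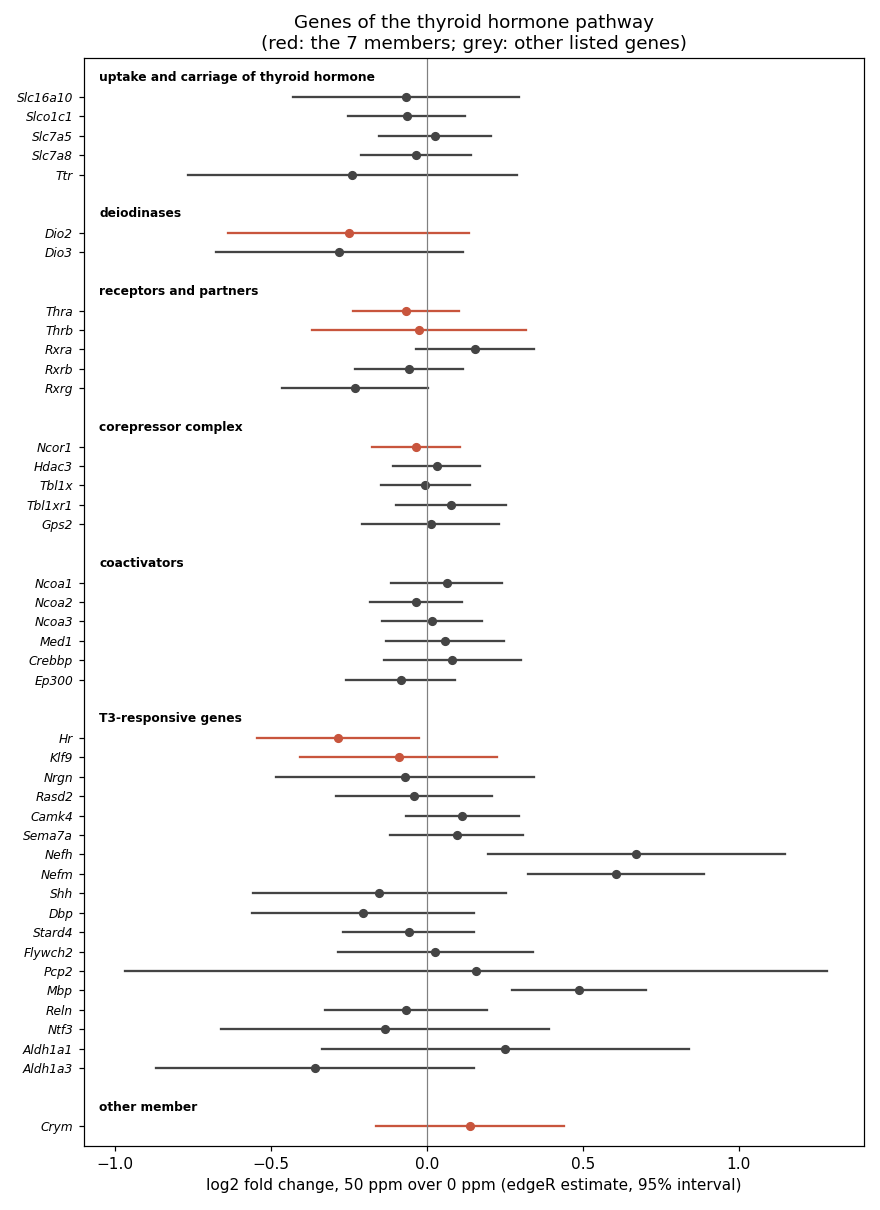
Log2 fold change of 50 ppm over 0 ppm (horizontal axis) with its 95% interval for 42 of the 45 tested genes of the pathway (rows), grouped by role. Intervals clear of 0 are those of *Hr* below 0 and of *Nefh*, *Nefm* and *Mbp* above 0.

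Upstream of *Dio2*, none of the 6 genes of hormone uptake and carriage had an unadjusted p under 0.05, and 5 of 6 were estimated lower. *Slco1c1*, the T4 transporter OATP1C1, was at 69.5 ± 9.82 and 66.4 ± 1.64 CPM (SD, n = 4 each). *Ttr* encodes transthyretin, the T4 carrier of choroid plexus, and was the most abundant of the list at 494 CPM per kilobase.

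*Ttr* ranged from 418 to 1128 CPM at 0 ppm and from 325 to 747 CPM at 50 ppm, with its highest value in the second control library, where the summed choroid plexus markers, which include it, were highest as well. Its log2 fold change of -0.24 (SE 0.25) was the lowest of the list, and that of *Slc7a5*, an amino acid transporter that also carries thyroid hormone, was the highest at 0.03 (SE 0.09). *Slc16a10* was the least abundant, at 0.575 CPM per kilobase.

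Beside *Dio2*, the type 3 deiodinase *Dio3*, which inactivates T4 and T3, was at 4.03 ± 0.854 CPM at 0 ppm and 3.33 ± 0.584 CPM at 50 ppm (SD, n = 4 each). Its log2 fold change was -0.28 (SE 0.19, 95% interval -0.68 to 0.11). The activating and the inactivating enzyme had estimates of like size and sign, and the intervals of both included 0. *Dio1*, the type 1 enzyme, had at most 1 read in any library and was not tested.

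Among the partners of *Thra* and *Thrb*, *Rxrg* was at 36.7 ± 6.41 CPM at 0 ppm and 31.3 ± 2.93 CPM at 50 ppm (SD, n = 4 each), with the lowest estimate of its list (log2 fold change -0.23, SE 0.11, unadjusted p = 0.0536). *Rxra* was at 24.3 ± 2.26 and 27.1 ± 0.993 CPM (SD, n = 4 each), with the highest estimate (log2 fold change 0.15, SE 0.09). None of the 5 receptors and partners had an unadjusted p under 0.05.

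Around *Ncor1*, 3 of the 6 genes of the corepressor complex were estimated higher and 3 lower. The highest estimate was a log2 fold change of 0.08 for *Tbl1xr1*, which was also the least abundant at 8.96 CPM per kilobase. Of the 6 coactivators 4 were estimated higher and 2 lower, with log2 fold changes from -0.08 for *Ep300* to 0.08 for *Crebbp*, both acetyltransferases. *Ncoa1* was the most abundant of these at 20.6 CPM per kilobase and *Ncoa3* the least at 6.45. No gene of either list had an unadjusted p under 0.05.

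Of 19 T3-responsive genes, *Hr* and *Klf9* among them, 9 were estimated higher and 10 lower at 50 ppm, with a median log2 fold change of -0.04. *Hr* was the only one lower at an unadjusted p under 0.05 (1.44% of all genes were), and 4 were higher at it (2.31% of all genes were). The lowest estimate was that of *Aldh1a3*, a retinaldehyde dehydrogenase (log2 fold change -0.36, SE 0.24), and *Camk4* was the most abundant at 77.7 CPM per kilobase. *Pcp2*, a Purkinje cell gene, was the least abundant at 0.357 CPM per kilobase.

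Among the 4 with a higher estimate, *Mbp*, myelin basic protein, was at 55.6, 51.5, 60.3 and 58.2 CPM at 0 ppm and at 80.8, 82.4, 60.7 and 92.6 CPM at 50 ppm. Every exposed library lay above every control, though the third did so narrowly. Its log2 fold change was 0.49 (SE 0.10, adjusted p = 0.290 by edgeR and the Benjamini-Hochberg method). *Nefm* and *Nefh*, the medium and heavy neurofilament chains, had log2 fold changes of 0.61 (SE 0.13, adjusted p = 0.304) and 0.67 (SE 0.23, adjusted p = 0.999) in that edgeR test.

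*Mbp* also belongs to the oligodendrocyte markers, of which 5 of 8 were higher at an unadjusted p under 0.05 (2.31% of all genes were), with *Cnp* and *Mag* among them. The paper had already reported *Mbp*, *Cnp* and *Mag* as raised in these same libraries. It called them with DESeq2 after correction for multiple testing, in the alignments to both parental genomes. Selected genes were also measured there by qRT-PCR. All marker lists and the T3-responsive list were chosen with earlier results of these data known, so their counts are a description and no independent support. *Nefm* was lowest in the first and second control libraries (148 and 122 CPM, against 184 to 298 CPM in the other 6), the libraries with the lowest hindbrain sum. Of the hindbrain and spinal cord markers 6 of 7 tested were higher at 50 ppm at an unadjusted p under 0.05, against 2.31% of all genes. Of the forebrain markers 3 of 8 were lower at it, *Bcl11b* and *Dlx5* among them, against 1.44% of all genes. The part of these regional markers in the levels of *Hr*, *Nefm*, *Mbp* and the other genes was not tested.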

How the data were processed

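The deposited values are raw gene counts of 8 poly(A) libraries, prepared by the authors with a strand-specific kit and sequenced as single-end reads. They trimmed the first bases, aligned with STAR to the C57BL/6J genome (GRCm38, Ensembl annotation) and counted them with htseq-count. The versions of these tools and the strand setting are not given in the sources used here, and how reads of CAST/EiJ alleles fared in this alignment was not tested. Counts of the CAST/EiJ alignment were not used. Library totals ran from 22916434 to 30708087, which limits the precision of genes with low counts.

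Genes at 0 in more than 5 of 8 libraries were left out. Counts were scaled by TMM (factors 0.986 to 1.02), and CPM used these library sizes. Doses were compared with edgeR 4.0.16 (glmQLFit, glmQLFTest, dose as the only term, Benjamini-Hochberg over all genes tested, threshold 0.05) in R 4.3.3. Single genes were also compared by exact permutation of mean log2 CPM (prior count 2), and pairs by exact permutation of pairings, with scipy 1.17.1. Alternatives were DESeq2 1.42.0, DESeq2 size factors, 2 other filters, limma-voom (limma 3.58.1), a robust fit and each library left out. The code was tested on simulated data. Exon lengths and positions came from GENCODE M21. The members and lists were chosen with earlier results of these data known. Named are the 7 genes, listed pathway genes with an unadjusted p under 0.05 or at the ends of their list in fold change or abundance, and per member the 2 genes most like it. Some single genes are not reported here. Other named genes were chosen after their values were seen. The p-values of edgeR set the difference between doses against the spread between the 4 pups of a dose, each from another litter. In that fit the spread of each gene is drawn toward that of other genes of like level. The p-values of the exact tests rest on relabelling or re-pairing the 8 libraries of both doses.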

Additional observations from a re-analysis of the deposited data

Results flagged for a closer look

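In *Crym* the first 50 ppm library stood apart from the other 3 of its dose, at 34.5 CPM against 29.7 to 30.0 CPM, by Dixon's test for a single far value. It was 1 of 14 groups (7 genes at 2 doses) checked in this way, and chance alone marks about 1 in 20 such groups.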

How the results depend on the processing

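*Dio2*, *Hr*, *Crym* and *Ncor1* kept their direction under all 14 alternatives, and no alternative brought a member past an adjusted p of 0.05 (lowest 0.640, *Crym* without the first control). *Hr* had an unadjusted p under 0.05 in 9 of 14 alternatives, with log2 fold changes from -0.36 to -0.18. With single libraries left out, log2 fold changes ran from -0.1155 to 0.0136 for *Thra* (above 0 without the first control), from -0.1451 to 0.2119 for *Thrb* (above 0 without the first control, or without the first exposed library at 0.0192) and from -0.2238 to 0.0462 for *Klf9* (above 0 without the first exposed library, or without the second control at 0.0097). Under limma-voom *Thrb* was at 0.0089. The cause of these turns was not tested.

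Of the pathway genes 0 passed at first, against 1 under DESeq2 (*Mbp*), 3 without a filter (*Nefm* and *Mbp* among them) and 0 to 2 with single libraries left out (*Nefm* without the third control, 2 genes, *Mbp* among them, without the third exposed library). Of all genes 4 passed, against 18 under DESeq2, 52 without a filter, 2 where 4 or more libraries had to reach 10 counts, 1 under limma-voom and 2 to 20 with single libraries left out (20 without the third control). The cause was not tested. The alignment to the CAST/EiJ genome was not run, since its identifiers could not be paired with these genes here. No paired analysis was possible because the labels give no number that pairs a 0 ppm pup with a 50 ppm pup. With 4 libraries per dose the exact permutation test cannot go below 0.0286.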
